A study of Homo sapiens with 6 samples.

Results

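The comparison described here sets A2780 cells carrying a hairpin against FAL-1 beside A2780 cells carrying the control of the FAL-1 set. It uses 3 of the 6 arrays of the series: 1 labelled FAL-1 Ctrl, 1 labelled FAL-1 shRNA1 (hairpin 1) and 1 labelled FAL-1 shRNA2 (hairpin 2), chosen by those labels alone. A2780 is an established human ovarian cancer cell line. All cells were infected with lentivirus, which carries a short hairpin RNA (shRNA) into the cell, had their virus medium replaced at 24 hours, and gave RNA at 96 hours. They grew with 10% fetal bovine serum. The other 3 arrays come from the same line with a BMI1 control, BMI1 shRNA1 or BMI1 shRNA2. They enter here as a second control array, for the test of a difference between targets, and for the estimate of spread. The FAL-1 hairpins share their 1 control array, and each hairpin was measured once, so the hairpins are the only replicates of the knockdown. Separate cultures are not described, and the spread between hairpins can be technical or can come from the hairpins themselves.

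FAL-1 (gene symbol FALEC) is a long non-coding RNA, a transcript that is not translated, whose gene is amplified in epithelial tumours. It has been described as a partner of BMI1, a subunit of Polycomb repressive complex 1, which keeps genes silent by modifying histones. One gene linked to that partnership is CDKN1A, which encodes p21, an inhibitor of the kinases that drive cells from G1 into S phase. CDKN1A is also a classic target of the tumour suppressor p53, a transcription factor that halts division under stress.

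The level of FAL-1 itself was not analysed here, so the knockdown rests on the labels. BMI1 read 10.84 in the FAL-1 control, 10.84 with hairpin 1 and 10.51 with hairpin 2, on the log2 scale of all values given here. Levels of some marker genes follow as a description and do not establish the identity of the line. VIM (vimentin, a filament protein) read 12.67 in the FAL-1 control, CDH2 (N-cadherin) 10.77, KRT8 9.28 and KRT18 8.79. The ovarian and epithelial markers PAX8, WT1, MUC16, EPCAM and CDH1 read 6.76, 6.75, 5.96, 6.36 and 5.89, all under the array's median probe set of 6.96. Markers of leukocytes and endothelium were also under it: PTPRC at 5.06, LYZ at 5.23, PECAM1 at 5.68 and VWF at 6.03. The fibroblast-associated genes LUM and DCN read 10.65 and 9.94. Probe sets differ in brightness, so these levels describe the arrays and do not rank the genes.

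The 2 FAL-1 hairpins lay at unlike distances from their control before any gene was considered. Across all probe sets, hairpin 1 correlated with the FAL-1 control at 0.9947, and hairpin 2 with it at 0.9849. Arrays of the BMI1 set correlated with each other at 0.9898 to 0.9921. Between the FAL-1 and BMI1 sets the values were 0.9726 to 0.9869, so the arrays also differed by set. In bulk RNA, fewer cells of a kind and less RNA per cell cannot be told apart. Of 18418 genes, 176 (0.956%) were 1.5-fold or more higher with hairpin 1 than in the control and 287 (1.56%) lower. With hairpin 2 the counts were 765 (4.15%) and 1299 (7.05%). Between the hairpins themselves, 623 genes (3.38%) were 1.5-fold or more higher with hairpin 2 and 1062 (5.77%) lower. The control arrays also differed from each other: 1.65% of genes were 1.5-fold or more higher in the FAL-1 control than in the BMI1 control and 0.901% lower. With BMI1 hairpins 1 and 2, 1.75% and 1.97% of genes were that far above their own control and 3.26% and 3.85% below it. Values are therefore given for each hairpin. Hairpin 2 was the highest of all 6 arrays for 30.7% of genes and the lowest for 17.4%.

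No gene passed limma's moderated test of FAL-1 knockdown against the FAL-1 control at an adjusted p under 0.05 (0 of 18418 genes, 0%, with the smallest adjusted p = 0.999). At an unadjusted p under 0.05 there were 563 genes (3.06%), of which 286 were higher and 277 lower. Genes are therefore described by their values, and none of the differences below passed the test. Both hairpins were 1.5-fold or more above the control for 106 genes (0.576%) and below it for 117 (0.635%). A stricter description asks for the same distance from the BMI1 control as well, which belongs to the other target's set. It left 82 genes higher (0.445%) and 55 lower (0.299%).

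**Figure D1:**
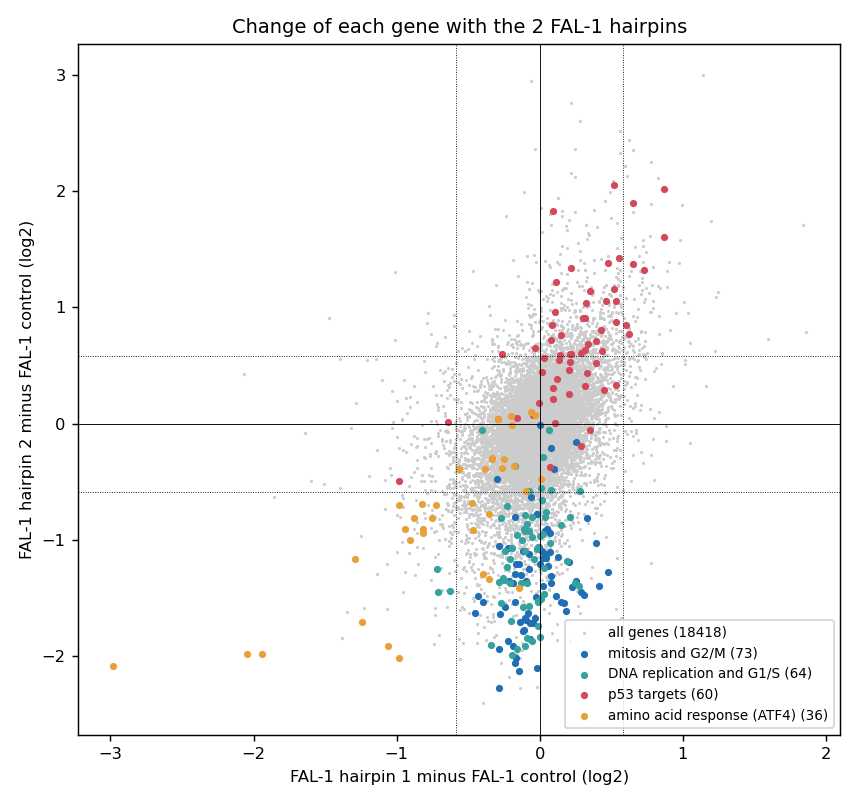
Log2 difference from the FAL-1 control of each of 18418 genes with hairpin 1 (horizontal axis) and hairpin 2 (vertical axis); both axes share the control array, and dotted lines mark 1.5-fold. Mitosis and replication genes lie low on the vertical axis and near 0 on the horizontal one, p53 targets lie up and to the right, and amino acid response genes lie down and to the left.

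The genes that stood farthest above both control arrays with both hairpins had varied roles. NTS, which encodes the neuropeptide neurotensin, read 6.12 in the FAL-1 control, 7.96 with hairpin 1 and 7.83 with hairpin 2, beside 5.29 in the BMI1 control. The mean log2 difference was 1.78 ± 0.09 (SD, n = 2 hairpins), and the hairpins lay much closer to each other than to the control. The BMI1 hairpins read 6.67 and 5.55 for NTS. SMPD1, acid sphingomyelinase, which makes ceramide in lysosomes, read 7.35 in the control, 8.55 with hairpin 1 and 9.09 with hairpin 2. ANXA1, annexin A1, a membrane-binding protein, read 6.21, 7.35 and 9.20 in the same order, so most of its distance came with hairpin 2. COL5A2, a fibrillar collagen chain, read 9.32, 10.55 and 10.41, with 9.26 in the BMI1 control. TULP3, a trafficking factor of primary cilia, read 9.37, 10.61 and 10.50, and the BMI1 hairpins read 10.46 and 10.50 for it. EBI3, a cytokine subunit, RFPL4B and TRIM55, a muscle ubiquitin ligase, completed the 8 highest, with mean differences of 1.03 ± 0.03, 1.44 ± 0.63 and 1.28 ± 0.42. For EBI3 the arrays overlap between targets, since BMI1 hairpin 2 read 8.41 beside 8.24 and 8.28 with the FAL-1 hairpins. TRIM55 was also higher with BMI1 hairpins 1 and 2, by 1.37 and 1.09 over their control.

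Ordered by distance from the FAL-1 control alone, the genes that followed included matrix and membrane genes. NID1, nidogen, a basement membrane protein, read 10.76 in the control and 11.65 and 11.94 with hairpins 1 and 2. MMP3, stromelysin, read 9.88, 10.86 and 11.26, and MMP1, a collagenase, 9.63, 10.52 and 10.94. SYNJ1, a phosphoinositide phosphatase, read 7.58, 8.61 and 8.53. ATP10D, a lipid flippase, read 8.12, 9.07 and 9.07, a difference of 0.95 with nearly no gap between hairpins. ABHD4, a lipid hydrolase, read 8.91, 9.81 and 10.29. ACER2, a ceramidase, read 7.37, 8.25 and 9.40, and at 7.73 in the BMI1 control it is not among the 82 genes past 1.5-fold over both controls. The rule that picked these 7 genes places the FAL-1 control below both hairpins, so that order is not a finding. Such genes could also be higher with the BMI1 hairpins than in their control, for example ATP10D by 0.90 and 1.05 and ACER2 by 1.27 and 1.05.

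On the lower side, PYGM, muscle glycogen phosphorylase, read 8.37 in the FAL-1 control, 6.99 with hairpin 1 and 6.53 with hairpin 2, beside 8.68 in the BMI1 control and 6.42 and 6.52 with the BMI1 hairpins. Its mean difference was -1.61 ± 0.32 (SD, n = 2 hairpins). RAB39A, a vesicle GTPase, read 8.83, 7.60 and 7.24, with 9.14 in the BMI1 control and 8.41 and 7.87 with the BMI1 hairpins. OIP5, a protein that helps load the centromere histone, read 8.37, 7.30 and 6.78, with 8.20 in the BMI1 control and 8.08 and 7.83 with the BMI1 hairpins. All 3 of these genes were picked for being lower with both FAL-1 hairpins than in either control. FBXO27, a ubiquitin ligase subunit, had a mean difference of -1.14 ± 0.10, SLC25A40, a mitochondrial carrier, -1.11 ± 0.20, SEPTIN3, a cytoskeletal GTPase, -1.08 ± 0.31 (with 9.11 in the BMI1 control and 7.27 and 8.02 with the BMI1 hairpins), and ROPN1L -0.85 ± 0.01. The pseudogene DUSP5P1 read -0.89 ± 0.02.

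**Figure D2:**
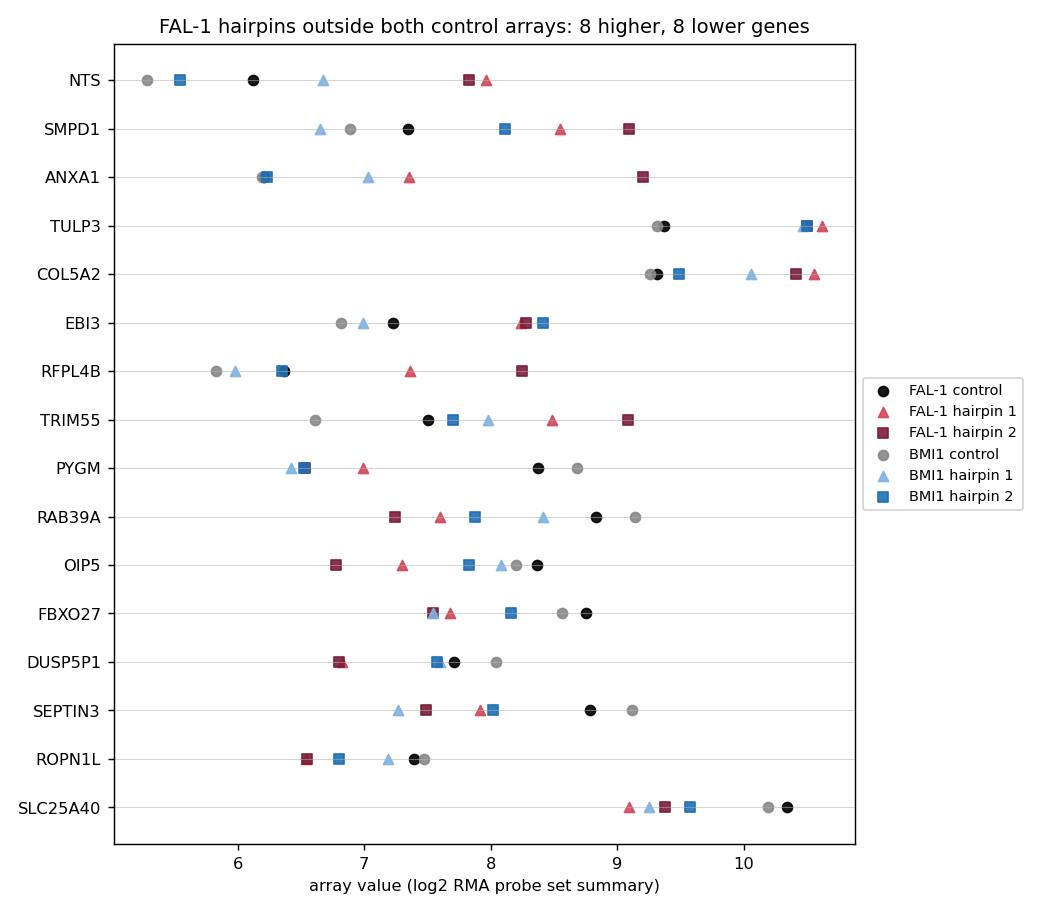
Array value (log2, horizontal axis) of the 8 genes farthest above and the 8 farthest below both control arrays with both FAL-1 hairpins; each symbol is 1 array. NTS lies at 7.96 and 7.83 with the hairpins against 6.12 and 5.29 in the controls, and PYGM at 6.99 and 6.53 against 8.37 and 8.68; the order itself was chosen from these values.

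Ordered by the smaller hairpin change below the FAL-1 control alone, the lowest genes were SLC7A11, CHAC1 and STC2, with PYGM and TUBE1 next. SLC7A11, CHAC1 and STC2 belong to the amino acid response. The transcription factor ATF4 runs this program when amino acids are short or protein folding is strained. It switches on amino acid transporters, amino acid synthesis enzymes and stress factors. ATF4 binds a composite element in the promoters of its targets, and the promoters of ASNS and CHAC1 are shown because both genes are among the lowest here and hold the letters TGATGNAA (either strand, in capitals). Each runs from 250 bases before to 50 after the RefSeq start on GRCh38.p14. ASNS lies on the minus strand at chr7:97872359-97872658 and CHAC1 on the plus strand at chr15:40953221-40953520.
ASNS: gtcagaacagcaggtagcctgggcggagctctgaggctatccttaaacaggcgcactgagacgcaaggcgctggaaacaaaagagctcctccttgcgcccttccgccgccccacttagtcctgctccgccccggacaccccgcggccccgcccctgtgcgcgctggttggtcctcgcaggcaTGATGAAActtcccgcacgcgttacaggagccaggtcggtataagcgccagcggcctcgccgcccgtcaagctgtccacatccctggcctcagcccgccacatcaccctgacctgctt
CHAC1: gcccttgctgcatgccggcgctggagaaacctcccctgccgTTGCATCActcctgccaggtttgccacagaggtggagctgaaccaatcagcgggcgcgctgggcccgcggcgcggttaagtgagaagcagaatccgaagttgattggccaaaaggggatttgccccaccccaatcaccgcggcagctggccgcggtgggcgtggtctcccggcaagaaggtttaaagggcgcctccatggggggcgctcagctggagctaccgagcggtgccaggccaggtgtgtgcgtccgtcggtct
The match starts at -68 in ASNS and at -209 in CHAC1, counted from 0 at the annotated start. The letters occur in 5 of the 29 list members with a promoter (17.2%) and in 3.67% of all 27305 promoters of 300 bases; a match is only a description of the sequence.

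Of 36 measured members of the amino acid response list, 31 (86.1%) were below the FAL-1 control with both hairpins, where 27.7% of all genes were. None was above it with both, where 37.2% of all genes were. The list's median log2 difference was -0.47 with hairpin 1 and -0.74 with hairpin 2, beside 0.01 and 0.05 over all genes. Both hairpins were 1.5-fold or more lower for 16 members, where they were for 0.635% of all genes. SLC7A11, the cystine transporter, read 9.53 in the FAL-1 control, 6.54 with hairpin 1 and 7.44 with hairpin 2. CHAC1, a glutathione-degrading enzyme, read 9.97, 7.92 and 7.99. STC2, a secreted glycoprotein, read 9.20, 7.26 and 7.22. Their mean differences were -2.53 ± 0.64, -2.01 ± 0.05 and -1.96 ± 0.03. All 3 were picked for lying far below the FAL-1 control with both hairpins. ASNS, asparagine synthetase, read 9.86, 8.80 and 7.95. DDIT4, an inhibitor of growth signalling, read 10.51, 9.27 and 8.80, and ALDH1L2, a mitochondrial folate enzyme, 9.95, 8.96 and 7.94. NUPR1, a stress-induced chromatin protein, read 7.95, 6.66 and 6.79. ATF4 itself read 11.01, 10.65 and 10.23.

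The BMI1 control did not share the high level of these genes. The FAL-1 control was the highest of all 6 arrays for 30 of the 36 members (83.3%), against 13.1% of all genes. It was also the highest for all 16 past 1.5-fold, but those were picked for lying below it with both hairpins. SLC7A11 read 6.90 in the BMI1 control, CHAC1 8.01, STC2 7.62 and DDIT4 9.22. Against that array the list's median was 0.02 with hairpin 1 and -0.08 with hairpin 2. Of the 16 members, 8 were below the BMI1 control with both FAL-1 hairpins, 5 were above it with both, and 3 had a hairpin on each side. PSAT1 (serine synthesis) and JDP2 (a transcription factor) were 1.5-fold or more lower than both controls, at 10.67 and 10.55 beside 11.48 and 11.41 for PSAT1, and at 8.36 and 8.30 beside 9.11 and 8.98 for JDP2. DDIT3, the stress factor CHOP, lay between the controls: it read 10.07 in the FAL-1 control, 7.34 in the BMI1 control, and 9.12 and 9.16 with the FAL-1 hairpins. With 1 control per target, the state of the control culture and the knockdown cannot be told apart for these genes.

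**Figure D3:**
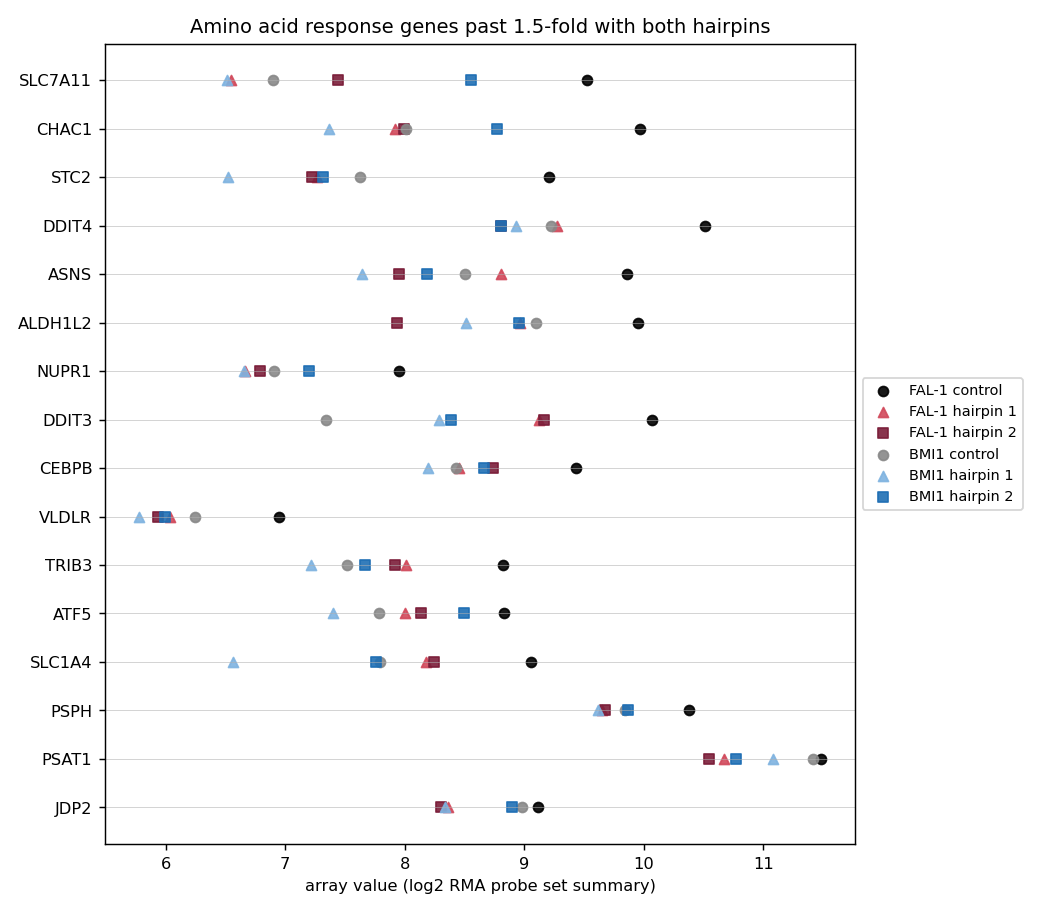
Array value (log2, horizontal axis) of the 16 amino acid response genes that were 1.5-fold or more lower with both FAL-1 hairpins; each symbol is 1 array. The FAL-1 control (black circle) is the highest array for all 16, which were picked for lying below it with both FAL-1 hairpins. The BMI1 control (grey circle) lies above both FAL-1 hairpins for 8 of them, below both for 5 and between them for 3.

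Related lists showed parts of this picture. Cytosolic tRNA synthetases, the enzymes that charge tRNAs with amino acids, were below the FAL-1 control with both hairpins for 14 of 19 members (73.7%, beside 27.7% of all genes), with medians of -0.16 and -0.40, and 0.11 and -0.10 against the BMI1 control. LARS1 (leucine) read 10.97 in the FAL-1 control and 10.50 and 10.38 with the hairpins, whereas HARS1 (histidine) was higher, at 11.20, 11.51 and 11.51. Chaperones and folding enzymes of the endoplasmic reticulum were not lower with them: their medians were 0.24 with hairpin 1 and 0.06 with hairpin 2, and 12 of 27 (44.4%) were above the control with both, near the 37.2% of all genes. DNAJB9, an endoplasmic reticulum co-chaperone, read 7.95, 8.52 and 8.91, while XBP1, a transcription factor of the unfolded protein response, read 11.04, 10.49 and 10.31. Among targets of NRF2, the antioxidant transcription factor, the medians were 0.04 and 0.03. HMOX1, heme oxygenase 1, was an exception at 8.85, 9.56 and 10.06, and so was SLC7A11, which belongs to both lists. HMOX1 lay further above its control with the BMI1 hairpins, at 10.66 and 10.80 beside 8.30 in the BMI1 control.

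Targets of p53 were higher with both hairpins, and further with hairpin 2. Of 60 measured members, 49 (81.7%) were above the FAL-1 control with both hairpins, where 37.2% of all genes were. The exception below it with both was ATF3, at 7.28, 6.29 and 6.78, a stress-induced transcription factor that is also in the immediate early list. The median was 0.29 with hairpin 1 and 0.63 with hairpin 2, and 0.36 and 0.68 against the BMI1 control, so this shift was present against either control array. Relative to both controls together, 43 members were above with both hairpins and 0 below, where 26.6% and 17.2% of all genes were. Of the list, 11 members had an unadjusted p under 0.05 (3.06% of all genes did), all 11 higher, and 0 passed limma's adjusted test.

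CDKN1A, the p21 gene, read 9.65 in the FAL-1 control, 10.17 with hairpin 1 and 11.70 with hairpin 2, which is 1.43-fold and 4.15-fold higher. The BMI1 arrays read 9.50 in the control and 10.34 and 10.65 with the hairpins. CDKN1A had been linked to FAL-1 before, so its direction is not independent evidence. The hairpins differ from each other here by more than hairpin 1 differs from the control. FAS, a death receptor, followed the same order at 7.90, 8.56 and 9.81, and so did ZMAT3, an RNA-binding growth suppressor, at 9.04, 9.91 and 10.64. TP53I3, an oxidoreductase, read 9.62, 10.27 and 10.99, and FBXW7, a ubiquitin ligase subunit that marks cyclin E for destruction, 8.29, 9.02 and 9.61. The hairpins were nearer each other for CYFIP2, an actin regulator, at 9.19, 9.82 and 9.96, and for RRM2B, which supplies nucleotides for repair, at 10.01, 10.62 and 10.86. ISCU, an iron-sulfur scaffold, read 9.52, 10.05 and 10.40. MDM2, the ligase that limits p53, read 11.35, 11.66 and 11.98.

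Members of the wider arrest network varied. HBP1, a repressor of cell cycle genes, read 8.53 in the FAL-1 control, 9.31 with hairpin 1 and 9.49 with hairpin 2, a mean difference of 0.87 ± 0.13 (SD, n = 2 hairpins). For HBP1 the BMI1 hairpins lay further above their control, at 9.05 and 9.06 beside 7.79. CDKN2B read 6.98, 7.04 and 7.70. CDKN2A, which encodes inhibitors that Polycomb complexes can silence, read 8.08, 7.98 and 8.04, close to the control with both. Over 19 CDK inhibitors, RB family members and G1 regulators the medians were 0.03 and 0.06. Among 33 apoptosis regulators they were 0.02 and 0.13. CASP9, the initiator caspase of the mitochondrial pathway, stood out there at 8.77, 9.43 and 9.85, beside 8.21 in the BMI1 control. BAX, a pore-forming death effector, read 10.03, 10.35 and 10.46. MCL1, a survival factor, read 11.32, 11.31 and 11.56.

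Genes of DNA replication and mitosis were far lower with hairpin 2 and had medians near 0 with hairpin 1. Below the control with both hairpins were 44 of 64 replication genes (68.8%) and 43 of 73 mitosis genes (58.9%), where 27.7% of all genes were, and 0 of either list were above it with both, where 37.2% of all genes were. Many mitotic promoters carry a cell cycle homology region, read by the MuvB complexes that repress these genes outside division, next to CCAAT boxes read by NF-Y. The promoters of KIF14 and NUSAP1 show the layout: both belong to the list of mitosis genes, and each holds the letters TTTGAA (either strand, in capitals). KIF14 lies on the minus strand at chr1:200620702-200621001 and NUSAP1 on the plus strand at chr15:41332631-41332930, on GRCh38.p14 from RefSeq.
KIF14: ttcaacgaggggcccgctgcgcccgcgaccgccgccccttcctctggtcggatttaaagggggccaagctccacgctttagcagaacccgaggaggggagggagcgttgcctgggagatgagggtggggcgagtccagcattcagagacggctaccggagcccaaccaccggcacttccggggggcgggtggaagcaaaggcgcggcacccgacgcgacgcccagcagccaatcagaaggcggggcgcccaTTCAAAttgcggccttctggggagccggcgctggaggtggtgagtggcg
NUSAP1: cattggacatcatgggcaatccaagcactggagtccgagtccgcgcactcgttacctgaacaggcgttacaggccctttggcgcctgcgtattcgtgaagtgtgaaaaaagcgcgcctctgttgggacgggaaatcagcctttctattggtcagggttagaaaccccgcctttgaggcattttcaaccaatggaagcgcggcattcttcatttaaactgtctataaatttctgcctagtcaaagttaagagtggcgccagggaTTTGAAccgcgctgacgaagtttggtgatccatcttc
The match starts at 1 in KIF14 and at 13 in NUSAP1, counted from 0 at the annotated start. Of 62 mitosis genes with a promoter, 41 (66.1%) hold TTTGAA, against 15.4% of all promoters of the same length, and 40 (64.5%) hold CCAAT, against 35.7%. Of 53 replication genes, 21 (39.6%) hold the E2F letters TTTNGCGC, against 1.83%, and 1 holds TTTGAA.

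With hairpin 2, 68 of 73 mitosis genes were 1.5-fold or more lower than the FAL-1 control, and 0 were with hairpin 1, where 7.05% and 1.56% of all genes were. The medians were -1.36 and -0.05. Hairpin 2 was the lowest of all 6 arrays for 70 of the 73 (95.9%), against 17.4% of all genes. The list was also lower with BMI1 hairpins 1 and 2, with medians of -0.33 and -0.73 against their own control. SKA1, a kinetochore subunit, read 8.68 in the FAL-1 control, 8.39 with hairpin 1 and 6.40 with hairpin 2. NUF2, another kinetochore subunit, read 9.99, 9.85 and 7.87. KIF15, a spindle motor, read 9.65, 9.63 and 7.55. CDK1, the mitotic kinase, read 11.21, 11.02 and 9.83, and MKI67, a proliferation marker, 10.69, 10.92 and 9.29. In these 5 genes hairpin 1 lay closer to the control than to hairpin 2. KIF15 was picked for its gap between hairpins and the others after their values were seen, so they only illustrate the list. KIF14, a cytokinesis motor, and NUSAP1, a spindle protein, leaned lower with hairpin 1 as well, at 10.14, 9.69 and 8.51 and at 10.29, 9.86 and 8.80. LMNB1, a nuclear lamina protein, was level at 10.15, 10.15 and 10.14.

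Replication genes gave medians of -0.08 with hairpin 1 and -1.13 with hairpin 2, and 56 of 64 were 1.5-fold or more lower with hairpin 2, against 3 with hairpin 1 (7.05% and 1.56% of all genes). Those 3 were E2F2, WDHD1 and HELLS. E2F2, a transcription factor of S phase genes, read 7.76 in the control, 7.05 with hairpin 1 and 6.51 with hairpin 2. WDHD1, a replication fork protein, read 10.16, 9.54 and 8.72. HELLS, a chromatin remodeller, read 9.64, 8.93 and 8.20, beside 10.43 in the BMI1 control. FANCI, a crosslink repair protein, read 10.66, 10.47 and 8.67, and CLSPN, a checkpoint adaptor, 8.88, 8.72 and 6.94. PCNA, the sliding clamp, differed from these at 10.23, 9.83 and 10.18. Against the BMI1 control the FAL-1 hairpins gave replication medians of -0.15 and -1.23 and mitosis medians of -0.18 and -1.54. BMI1 hairpins 1 and 2 gave replication medians of -0.39 and -0.60 against that same control. For each gene the gap between the FAL-1 hairpins is the same whichever control is subtracted, so the second control does not test it. No member of either list passed limma's test, in which that gap counts as spread. Without hairpin 2 the replication and mitosis medians are those of hairpin 1.

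**Figure D4:**
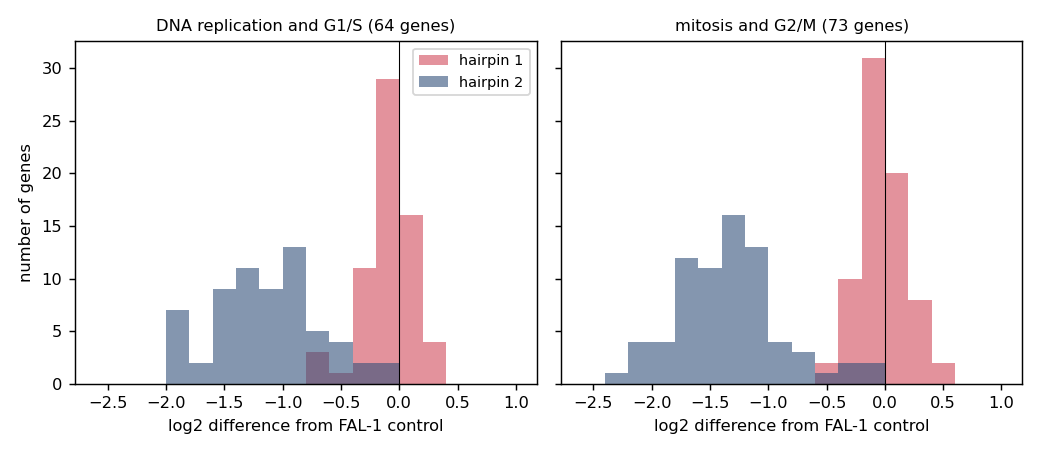
Number of genes (vertical axis) by log2 difference from the FAL-1 control (horizontal axis, bins of 0.2) for 64 replication genes and 73 mitosis genes; red is hairpin 1 and blue is hairpin 2. The hairpin 1 values centre on -0.08 and -0.05 and the hairpin 2 values on -1.13 and -1.36.

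Replication-dependent histones, which are made with DNA in S phase, had medians of -0.14 and -0.92. With hairpin 2, 30 of 49 were 1.5-fold or more lower, against 1 with hairpin 1 (7.05% and 1.56% of all genes). H2AC15 read 10.06, 9.32 and 8.17, and H1-5, a linker histone, 10.49, 10.32 and 8.47. The FAL-1 control was the highest of all 6 arrays for 34 of the 49 (69.4%), where it was for 13.1% of all genes, and against the BMI1 control the medians were 0.13 and -0.50. H2BC11 and H4C8 were higher, at 7.98, 8.55 and 8.99 and at 9.73, 10.27 and 10.97. Histone genes are close copies of each other, so reads of single members are uncertain.

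Some genes separated the hairpins entirely. The 6 highest with hairpin 2 over hairpin 1 included GJA5, a gap junction protein, at 5.73 in the control, 5.68 with hairpin 1 and 8.68 with hairpin 2. THBS1, thrombospondin 1, a matrix glycoprotein, read 6.98, 7.20 and 9.73. TGM2, a protein crosslinking enzyme, read 8.21, 8.49 and 10.81, and S100A16, a calcium-binding protein, 6.59, 6.56 and 8.95. For these 4 genes hairpin 1 lay close to the control and hairpin 2 far above both. GNPDA1, a glucosamine phosphate deaminase, was different: it read 9.77 in the control, 7.71 with hairpin 1 and 10.20 with hairpin 2, and all BMI1 arrays lay between 9.68 and 9.85. GPR84, a receptor of fatty acids, read 8.80, 7.33 and 9.71.

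Hairpins on opposite sides of the control by 1.5-fold or more were found for 12 genes (0.0652%). HEG1, a vascular transmembrane protein, read 8.29 in the control, 7.28 with hairpin 1 and 9.60 with hairpin 2. FHIP1A read 7.82, 7.03 and 8.69, and SLC5A3, an inositol transporter, 10.47, 9.69 and 11.42. The 6 lowest with hairpin 2 against hairpin 1 were mostly genes of division. CDKN3, a phosphatase of CDKs, read 9.10, 9.67 and 7.43, and SHCBP1, a cytokinesis protein, 9.81, 10.34 and 8.21. GPSM2, a spindle orientation protein, read 8.61, 8.95 and 6.66, GAS2L3, a cytokinesis protein, 9.84, 9.82 and 7.58, and ATAD5, an unloader of the replication clamp, 9.16, 9.02 and 6.89. KIF15, given above, was the sixth. CDKN3, SHCBP1 and GPSM2 were higher than the control with hairpin 1.

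NF-kappaB targets and immediate early genes, which respond to cytokines and growth factors, had medians of 0.01 with hairpin 1 and 0.46 with hairpin 2, and 17 of 36 were 1.5-fold or more higher with hairpin 2, against 1 with hairpin 1 (4.15% and 0.956% of all genes). That 1 was NR4A2, a nuclear receptor, at 7.02, 7.67 and 9.37. IER3 read 9.38, 9.52 and 10.84, and TNFAIP3, a brake on NF-kappaB, 6.52, 6.59 and 7.89. JUNB, an AP-1 subunit, read 9.55, 9.81 and 10.27. Hairpin 2 was the highest of all 6 arrays for 29 of the 36 (80.6%), against 30.7% of all genes. Secreted inflammatory and senescence factors had medians of 0.00 and 0.20, with GDF15, a stress-induced hormone, at 10.76, 11.24 and 12.14. Interferon response and antigen presentation genes had 0.05 and 0.22. B2M, the light chain of class I molecules, read 10.22, 10.64 and 10.65, and IRF9, an interferon signalling factor, 7.92, 8.30 and 8.54.

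Genes of the matrix and the actin cytoskeleton were higher with both hairpins in part. Of 44 collagens and matrix proteins, 27 (61.4%) were above the FAL-1 control with both, where 37.2% of all genes were, with medians of 0.08 and 0.24. LAMC1, a laminin chain, read 10.86, 11.26 and 11.48, while LAMB1, another, was lower at 7.61, 7.20 and 7.19. COL1A2, a chain of type I collagen, read 9.84, 10.36 and 11.03. Targets of SRF and YAP, which answer to actin tension, were above with both for 27 of 37 (73.0%, beside 37.2% of all genes), with medians of 0.11 and 0.32. CCN2, a matricellular growth factor, read 8.59, 9.22 and 11.03, and ANKRD1, a muscle ankyrin protein, 6.40, 7.18 and 8.28. CNN1, calponin, read 8.52, 9.22 and 9.30, with little between hairpins. The BMI1 control lay higher than the FAL-1 control for ANKRD1, at 7.35, and for CNN1, at 9.19, and against it the list's medians were 0.02 and 0.14.

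Epithelial genes had medians of -0.02 and 0.20, and mesenchymal genes 0.08 and 0.19. Markers of the ovarian line had 0.02 and 0.22, with 13 of 21 above the control with both (37.2% of all genes). Of 3 keratins chosen after their values were seen, KRT8 read 9.28 in the control, 9.04 with hairpin 1 and 11.07 with hairpin 2, KRT19 read 6.72, 6.73 and 8.57, and KRT18 8.79, 8.45 and 9.47. ITGA5, the fibronectin receptor chain, read 10.22, 10.71 and 10.98. PDGFRB, a growth factor receptor of stromal cells, was lower at 7.74, 7.15 and 7.07. Over 19 markers of leukocytes, endothelium and fibroblasts the medians were 0.00 and 0.07, 8 members were above the control with both hairpins and 6 below (42.1% and 31.6%, beside 37.2% and 27.7% of all genes), and LUM and DCN read 11.33 and 10.57 and 10.30 and 9.78 with hairpins 1 and 2.

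Lysosome and autophagy genes were above the FAL-1 control with both hairpins for 29 of 40 members (72.5%, beside 37.2% of all genes), with medians of 0.16 and 0.31, and 0.40 and 0.49 against the BMI1 control. SMPD1, given above, had the largest difference. GABARAPL1, an autophagosome protein, read 9.17 in the control, 9.93 with hairpin 1 and 10.78 with hairpin 2. ATP6AP1, an accessory subunit of the proton pump, read 10.91, 11.40 and 11.43, and CTSB, cathepsin B, 9.71, 10.21 and 10.14. Relative to both controls together, 28 members were above with both hairpins and 1 below, where 26.6% and 17.2% of all genes were.

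Metabolic and growth lists had medians nearer to 0. Sterol and fatty acid synthesis genes had medians of -0.06 and -0.04 against the FAL-1 control, and 0.37 and 0.34 against the BMI1 control, where MVK, mevalonate kinase, read 7.34 beside 8.36 in the FAL-1 control and 8.61 and 8.62 with the hairpins. Glycolysis and hypoxia genes had -0.06 and -0.15. ENO2, a neuronal enolase, read 7.61, 6.84 and 6.71 and lay below both controls, while KDM3A, a hypoxia-induced demethylase, read 9.16, 9.75 and 9.73. With the BMI1 hairpins ENO2 changed by -1.01 and -1.09 from their control, and KDM3A by 0.49 and 0.78. Oxidative phosphorylation subunits had 0.08 and -0.14, a difference in sign between hairpins, although COX7C read 9.46, 10.17 and 10.10. COX7C was also higher with the BMI1 hairpins, by 0.88 and 0.82 over their control. Ribosome biogenesis factors had -0.06 and -0.13, with DKC1, the pseudouridine synthase dyskerin, at 10.37, 10.05 and 9.88. Cytosolic ribosomal proteins had -0.05 and -0.12, with 31 of 46 (67.4%) below the control with both, beside 27.7% of all genes. Against the BMI1 control their medians were 0.03 and -0.08. The FAL-1 control was the highest of all 6 arrays for 16 of the 46 (34.8%), against 13.1% of all genes.

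**Figure D5:**
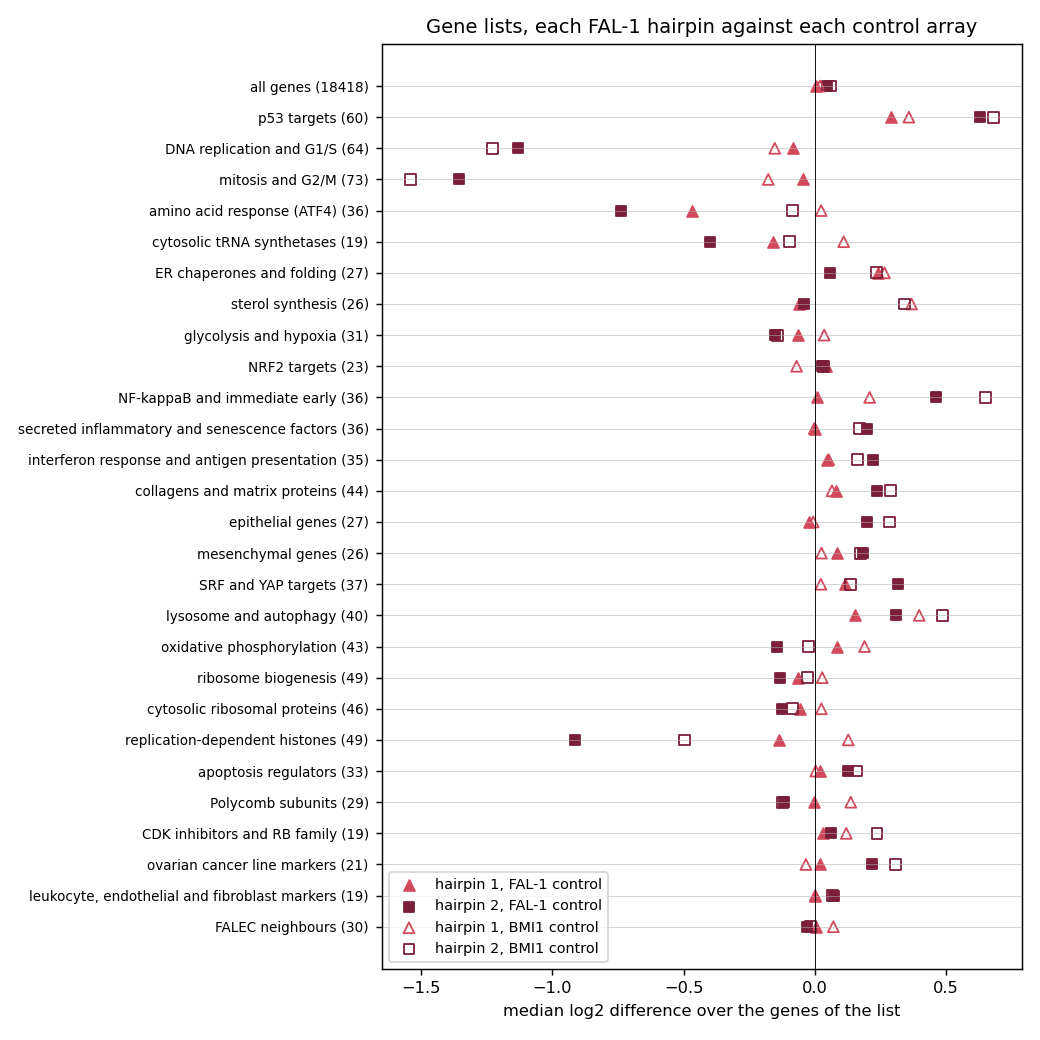
Median log2 difference over the genes of each list (horizontal axis; number of genes in brackets) for hairpin 1 (triangles) and hairpin 2 (squares), against the FAL-1 control (filled) or the BMI1 control (open). The p53 medians are above 0 in all 4 settings, replication and mitosis lie at -1.13 and -1.36 with hairpin 2 against the FAL-1 control and at -0.08 and -0.05 with hairpin 1, and the amino acid response lies at -0.47 and -0.74 against the FAL-1 control but at 0.02 and -0.08 against the BMI1 control.

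Subunits of the Polycomb complexes, with which FAL-1 has been linked, had medians of 0.00 and -0.12 over 29 members. None was 1.5-fold or more off the control with both hairpins, near the 0.576% higher and 0.635% lower over all genes. EZH2, the histone methyltransferase, read 10.58 in the control, 10.42 with hairpin 1 and 9.44 with hairpin 2. RBBP4, a histone-binding subunit, read 11.27, 10.91 and 10.70, and RING1, a ubiquitin ligase subunit, 9.23, 9.46 and 9.47. SUZ12, a core subunit of the second complex, read 11.54, 10.81 and 11.29, lowest with hairpin 1. Among the 30 measured genes nearest to FALEC, 15 on each side, the medians were 0.00 and -0.03. ECM1, a matrix protein gene and the nearest measured gene on one side, was the only one of the 30 past 1.5-fold with both hairpins. Over all genes, 0.576% were that far higher with both and 0.635% that far lower. ECM1 read 7.37 in the FAL-1 control and 8.09 and 8.52 with the hairpins. The BMI1 control read 6.87, and the BMI1 hairpins lay 0.01 and 0.13 above it on the log2 scale. ADAMTSL4, the nearest on the other side, read 7.36, 7.19 and 6.85.

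Whether a difference was particular to FAL-1 was tested as the FAL-1 change minus the BMI1 change in the same limma fit. No gene passed (0 of 18418, 0%, with the smallest adjusted p = 0.9999), and 148 genes (0.804%) had an unadjusted p under 0.05, of which 62 had the higher change with FAL-1 and 86 the lower. Values for some of the genes with the smallest unadjusted p are therefore a description. DDIT3 had the smallest, with a difference of -1.92 between the changes, and its FAL-1 and BMI1 controls were 10.07 and 7.34. TUBE1, epsilon tubulin, read 8.86 in the FAL-1 control and 7.51 and 7.23 with the FAL-1 hairpins, against 7.75, 7.72 and 7.70 on the BMI1 arrays. NCOA7, a coactivator, read 7.71, 6.57 and 6.42, against 7.04, 6.94 and 6.96. In all 3 the FAL-1 control was the highest array. PI15, a protease inhibitor, read 7.23, 8.02 and 8.29 on the FAL-1 arrays and 7.12, 6.53 and 6.58 on the BMI1 arrays, with controls close together. ECM1 had a difference between the changes with an unadjusted p of 0.046 in limma's fit and did not pass. For the p53 list the medians with BMI1 hairpins 1 and 2 were 0.37 and 0.37, beside 0.29 and 0.63 with the FAL-1 hairpins, and 0 members passed the test of the difference.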

How the data were processed

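RNA of 6 samples was hybridised to 1-colour Affymetrix whole-transcript arrays. The authors deposited 1 table of log2 probe set values, made with RMA (background correction, normalization and probe summary) per the submitters' processing notes; its version, software and build are not stated there. Of 33252 probe sets, 19460 have 1 gene symbol in the platform annotation, 1754 several and 12038 are not listed there. Genes with several probe sets (769) are represented by the brightest, and the BMI1 probe set, also annotated to COMMD3-BMI1, was kept, which gives 18418 genes.

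Groups followed the labels. All 6 arrays entered 1 limma fit (version 3.58.1, R 4.3.3; lmFit, eBayes, two-sided, Benjamini-Hochberg over all genes) with 4 group means and 2 residual degrees of freedom, both from hairpin pairs; each lone control is assumed to vary like the hairpins. Fold counts use 1.5-fold on each hairpin. Tested on simulated data for the FAL-1 comparison (18418 genes, 20 runs), the fit called 0% of genes changed 2-fold and 29.9% of genes changed 4-fold, with 2.4 false calls a run on average. The number of arrays limits the precision. RefSeq tables (GRCh38.p14) gave gene neighbours and promoters, the latter for 14240 measured genes.

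The members and the 27 lists were chosen with earlier results of these data known. Genes were named by rule: up to 15 per direction by the smaller hairpin change, 8 outside both controls, 6 by hairpin difference, 4 on opposite sides, 4 per list by limma's p, and BMI1, FALEC, CDKN1A, MDM2, CDKN2A, CDKN2B and MCL1. Other names (ATF4, TP53I3, the cell markers, SKA1, NUF2, CDK1, MKI67, LMNB1, FANCI, CLSPN, PCNA, H1-5, EZH2, RING1, IER3, TNFAIP3, CCN2, PSAT1, JDP2, FBXW7, LUM, DCN and PI15) were chosen after their values were seen. Alternatives were the other control, pooled controls, FAL-1 arrays alone, 2 normalizations, 2 filters on dim genes, the mean of probe sets, 2 variance priors, a hairpin block, leaving out each hairpin and other thresholds.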

Additional observations from a re-analysis of the deposited data

Results flagged for a closer look

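Probe sets without a single gene symbol were not part of the gene comparisons. Of these 13791, 31 (0.225%) were 1.5-fold or more higher with both FAL-1 hairpins than in both control arrays, and 35 (0.254%) were lower, beside 0.445% and 0.299% of named genes. They were picked out because they lie outside the measurement described above, and their genes are not named here.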

How the results depend on the processing

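No gene passed limma's adjusted test for FAL-1 knockdown, or for the FAL-1 change minus the BMI1 change, under any alternative run. Genes at an unadjusted p under 0.05 in limma, 563 for the knockdown, came to 1511 with the BMI1 control, 1762 with both controls pooled and 272 without the dimmest 50% of genes, and to between 426 and 1927 without 1 hairpin array, the highest without FAL-1 hairpin 1. For the difference between targets, 148 became 71 and 29 without the dimmest 25% and 50%, where fewer genes are tested, and 172 to 567 without 1 hairpin array. With the hairpin number as a replicate block the counts were 1064 and 286; the numbers name different hairpins and pair no cultures. Genes past 1.5-fold with both hairpins were 455 higher and 277 lower against the BMI1 control, and 192 higher with pooled controls. At 1.3-fold they were 373 and 439, and at 2-fold 6 and 12. Between hairpins, 1552 and 1988 genes passed 1.3-fold, 162 and 332 passed 2-fold, and 388 were higher without the dimmest 50%. The amino acid response median was -0.053 against the BMI1 control, -0.33 with pooled controls, and -0.47 to -0.74 with 1 hairpin. Among named genes past 1.5-fold, SLC7A11 turned to 0.10 against the BMI1 control, and DDIT3 to 1.80 there and to 0.44 with pooled controls. Both read highest in the FAL-1 control array. Beyond these reversals, 79 named genes shifted by more than the SD of their 2 hairpin changes with the BMI1 control, and 71 did not. With pooled controls 52 shifted that far and 99 did not. Of the list medians, all genes included, 9 shifted by the SD of the 2 hairpin medians or more with the BMI1 control, and 19 did not. With pooled controls these were 5 and 23. With 1 hairpin left out, the p53 median of 0.45 lay between 0.29 and 0.63, the replication median of -0.58 between -1.13 and -0.08, and the mitosis median of -0.67 between -1.36 and -0.05, each nearer 0 without hairpin 2.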
